A study of Mus musculus with 20 samples.

Results

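The respiratory chain of the mitochondrial inner membrane is built from subunits of 2 genomes, and the genes described here are the entries named for its protein subunits in both. They were chosen by mouse symbol: the mitochondrial names starting with mt-Nd, mt-Co, mt-Cytb and mt-Atp, and the nuclear names of the Nduf (a, b, c, s or v with a number), Sdha to Sdhd, Uqcr, Cox4 to Cox8 and Atp5 series, with pseudogene names (-ps) left out, although 4 nuclear entries that remain (Ndufs6b, Cox6c2, Ndufb4c and Ndufa11b) are annotated as processed pseudogenes. The rule took 102 of the 55487 gene entries in the count files, 13 of them mitochondrial and 89 nuclear, and 96 had at least 1 read. By name, the mitochondrial genes belong to complex I (7 genes), complex III (1), complex IV (3) and complex V (2). The nuclear entries belong to complex I (40), complex II (4), complex III (8), complex IV (19) and complex V (18).

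Complexes I to IV pass electrons from NADH and succinate to oxygen and, except complex II, pump protons, and complex V, the ATP synthase, uses the proton gradient to make ATP. The mitochondrial genome codes for core membrane subunits, is transcribed as long precursors from both strands by its own polymerase, and is present in many copies per cell. The nuclear subunits are transcribed one gene at a time, translated in the cytosol and imported, and neurons draw most of their ATP from this system.

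Poly(A) RNA was sequenced from single-end libraries of the hippocampus and cortex of NMRI mice, an outbred stock. All animals had undergone bulbectomy, the removal of the olfactory bulbs, by which the study models sporadic Alzheimer's disease. They then received 1 of 2 chaperone proteins through the nose once a day for 21 days from day 14 after surgery: human recombinant HSP70 at 4 µg, or recombinant YB-1 at 6.4 µg (labelled YB1). The 4 groups of hippocampus HSP70, hippocampus YB1, cortex HSP70 and cortex YB1 held 5 libraries each. No sham-operated or vehicle-treated group was analysed here, so a treatment difference sets YB1 against HSP70. The labels give no age of the animals and do not name the animal behind a library, so p-values measure the spread between these libraries, which may be technical.

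Assigned reads ranged from 6414215 to 15148078 per library. Cortical libraries of the 2 treatments had ranges that did not meet, both of depth and of the share of reads outside any gene, which was 3.39% to 4.58% with HSP70 and 2.45% to 3.31% with YB1. Markers of the tissues separated them: 5 of 6 hippocampal markers were higher and 8 of 8 cortical markers were lower in the hippocampus. All 6 oligodendrocyte markers were also higher there, with summed levels of 3673 to 6826 CPM (read counts scaled to library size with TMM factors) against 1359 to 2498.5 in the cortex. All 6 choroid plexus markers were higher as well, at 33.1 to 1631 CPM summed against 9.02 to 156. In bulk tissue, fewer cells of a type and less RNA per cell cannot be told apart.

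Only 7 of the 13 mitochondrial genes carried more than a handful of reads. These were mt-Nd1, mt-Nd2, mt-Nd4, mt-Nd5 and mt-Nd6 of complex I, mt-Cytb of complex III and mt-Co1 of complex IV. In genome order the other 6, mt-Co2, mt-Atp8, mt-Atp6, mt-Co3, mt-Nd3 and mt-Nd4l, form 1 uninterrupted stretch between mt-Co1 and mt-Nd4. Over all 20 libraries mt-Co2, a core subunit of cytochrome oxidase, had 6 reads and mt-Co3 had 3, and mt-Atp8, mt-Atp6, mt-Nd3 and mt-Nd4l were listed at 0. By contrast mt-Co1, of the same complex as mt-Co2 and mt-Co3, had 3250397 reads.

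The sequences of this stretch recur in annotated nuclear genes. Of all 50-base windows of mt-Co2, 100% were also found in a transcript of another gene of the GENCODE M21 annotation. The share was 99.9% for mt-Co3, 99.5% for mt-Atp6, 98.8% for mt-Nd4l and 98.0% for mt-Nd3, but 0% for mt-Atp8. Among the measured genes it was 62.2% for mt-Nd4, 51.1% for mt-Co1, 8.19% for mt-Nd2, 7.61% for mt-Nd5, and 0% for mt-Nd1, mt-Nd6 and mt-Cytb. The multi-mapping entry of every count file was 0, and how reads with several matches were treated is not given in the sources used here. The part of that treatment in the zeros was not tested.

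The following stretches, from the M21 transcripts, are shown because they are where a mitochondrial gene and its closest nuclear copy are alike, and capitals mark the only base that differs. Positions count from 1 at the 5′ end of the mitochondrial gene. The substitution is T3C between mt-Nd3 and Gm28438, over 345 aligned bases (bases 1 to 32 printed). It is A1066T between mt-Co1 and Gm29216, where only 483 bases aligned, 31.3% of mt-Co1 (bases 1063 to 1095 printed). In the aligned 681 bases mt-Co2 and Gm28661 do not differ, and bases 121 to 180 are printed.
mt-Nd3: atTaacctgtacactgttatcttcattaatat
Gm28438: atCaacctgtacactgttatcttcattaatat
mt-Co1: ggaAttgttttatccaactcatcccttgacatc
Gm29216: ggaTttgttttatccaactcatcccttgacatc
mt-Co2: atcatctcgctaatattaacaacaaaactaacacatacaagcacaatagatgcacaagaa
Gm28661: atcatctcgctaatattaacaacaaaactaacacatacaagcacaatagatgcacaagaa

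Gm28438, the copy of mt-Nd3, held up to 229 reads in a library, and its mean levels in the 4 groups were 11.97 to 15.6 CPM. The copies of mt-Co2, mt-Co3 and mt-Atp6 held at most 10, 3 and 2 reads in a library. The copies of mt-Nd4 and mt-Co1 held at most 2 and 12.

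**Figure D1:**
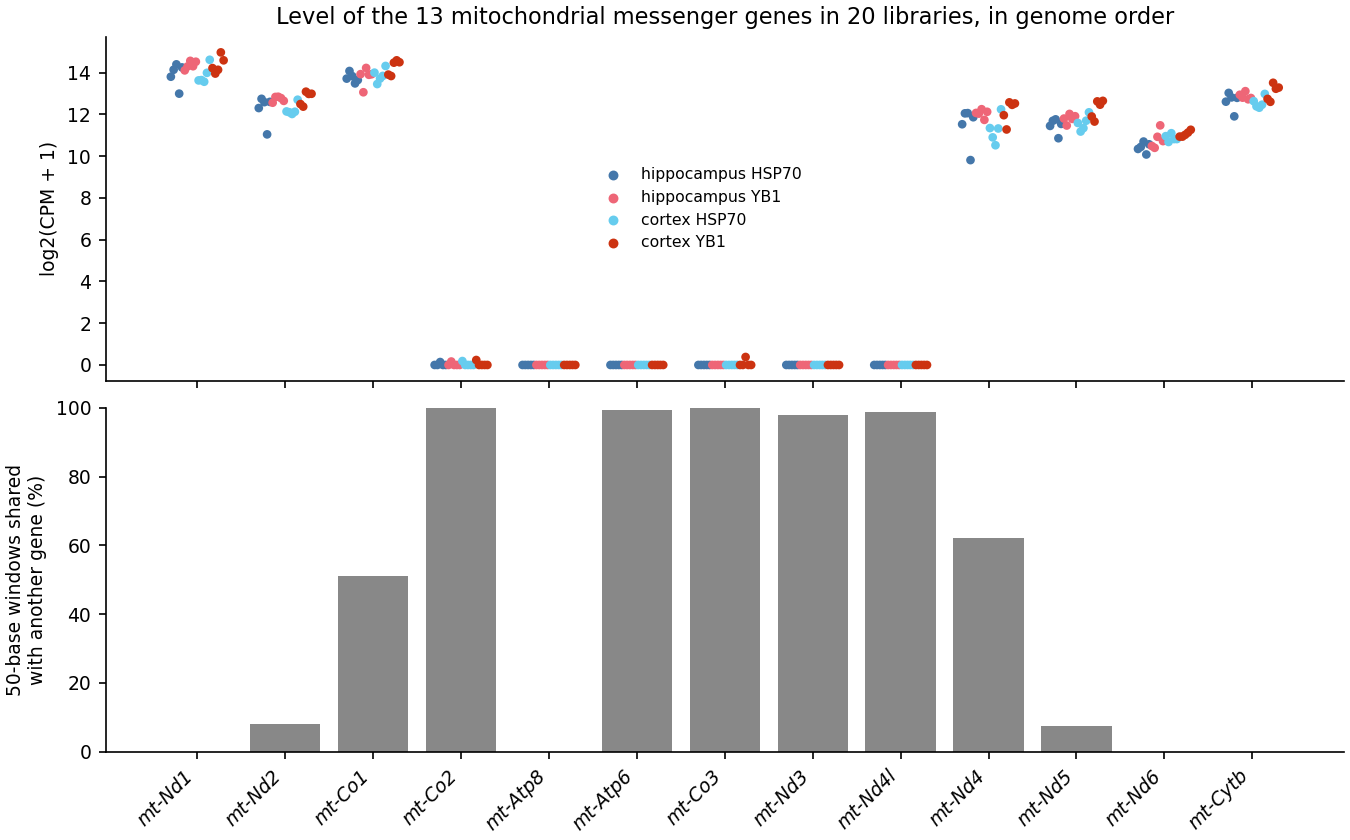
Upper panel, log2(CPM + 1) of each mitochondrial messenger gene in each of the 20 libraries, coloured by group; lower panel, the percentage of its 50-base windows found in another annotated gene. The 6 genes from mt-Co2 to mt-Nd4l lie at or near 0 in every library, and 5 of these 6 share at least 98.0% of their windows, mt-Atp8 sharing 0%.

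Per kilobase of exon, with all annotated exons of a gene merged, every measured mitochondrial gene stood above every nuclear member. The merged length was 1550 bases for Cox4i1 and 4237 for Atp5b. A single transcript can be shorter than this, which would raise the level per kb, and the order under other lengths was not tested. Mean levels over the 20 libraries were 19676 CPM per kb for mt-Nd1, 10388 for mt-Co1, 6361 for mt-Cytb, 5825 for mt-Nd2, 3506 for mt-Nd6, 2719 for mt-Nd4 and 2018 for mt-Nd5. The highest nuclear members were Cox4i1, the common form of cytochrome oxidase subunit 4, at 1039 CPM per kb and Cox6a1 at 897. Atp5b, the catalytic beta subunit of the ATP synthase, followed Cox8a (600.2) and stood at 467 CPM per kb.

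Of the nuclear members, 82 averaged 1 CPM or more. Among these, the median level was 77.6 CPM per kb in complex I, 73.7 in complex II, 109 in complex III, 49.4 in complex IV and 101.07 in complex V, and members of one complex ranged more widely, in complex I from 3.34 to 285 CPM per kb over its 37 members that averaged 1 CPM or more. The nuclear member with the highest mean CPM was Ndufv1, the NADH-binding subunit, in complex I (405 CPM), Sdha, the flavoprotein, in complex II (396), Uqcrc1, a core protein, in complex III (571), Cox4i1 in complex IV (1610.1) and Atp5b in complex V (1978). Atp5l, a subunit of the membrane part of ATP synthase, was at 1.17 CPM, 0.18 CPM per kb, far under the other subunits of its complex. Its merged exons span 6443 bases. Over all its annotated transcripts 648 of 6487 windows (9.99%) recur in other genes, and the share within a single transcript can be higher. Among all nuclear members with any read, those with over 20% of windows shared (10 members) had a median of 33.9 CPM per kb. It was 72.7 for 25 members with 5% to 20% and 80.0 for 52 with at most 5%. The 10 include the processed pseudogenes Ndufs6b, Cox6c2 and Ndufb4c, which held at most 6, 4 and 2 reads in a library and lower that median. The part of shared sequence in these levels was not tested.

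**Figure D2:**
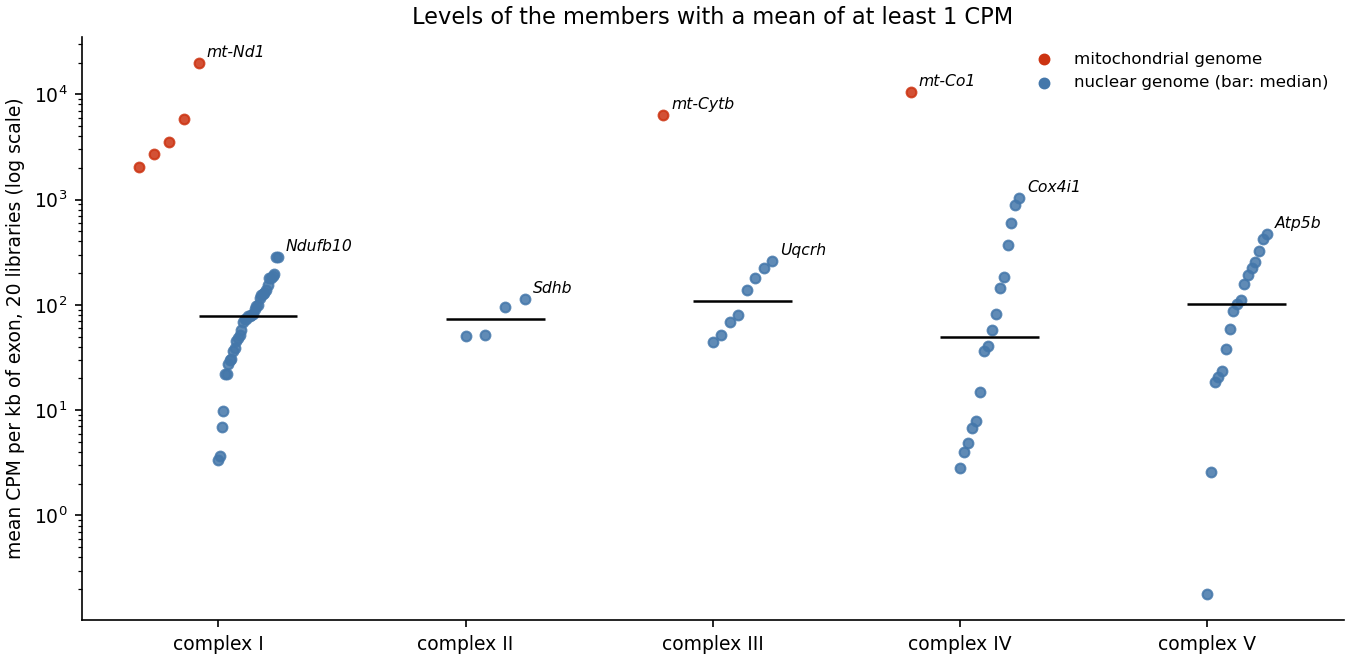
Mean CPM per kb of exon over 20 libraries on a log axis, for members that averaged 1 CPM or more, by complex. Lengths are of all annotated exons of a gene merged. Red points are mitochondrial, blue points nuclear genes, and bars the medians of nuclear genes. All 7 mitochondrial points, from 2018 to 19676 CPM per kb, lie above the highest nuclear point (Cox4i1, 1039).

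The isoforms of tissue-type subunits were led by the common forms. Cox6a1 stood at 629.6 CPM against 5.33 for Cox6a2, the heart and muscle form, Cox6b1 at 261 against 5.38 for Cox6b2, first known from testis, and Cox4i1 at 1610.1 against 5.33 for Cox4i2, the lung form. Cox7a2 was at 135 CPM, Cox7a2l, which joins complexes III and IV in supercomplexes, at 120.4 and the muscle form Cox7a1 at 2.13. Cox8a was at 372 CPM, Cox8b at 1.02 and Cox8c at 0, Cox7b was at 44.4 and Cox7b2 at 0.31, and Ndufa4 was at 111 against 3.65 for Ndufa4l2. The 3 genes for the identical c subunit of the ATP synthase ring were at 417 (Atp5g3), 102 (Atp5g1) and 39.7 CPM (Atp5g2).

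The 13 mitochondrial genes took 3.09% to 8.47% of a library's assigned reads, nearly all of them from the 7 measured genes, on which the sums below also rest. The 7 measured genes divided these reads in much the same order in all groups: mt-Nd1 took 23.8% to 39.0% of them, mt-Co1 16.6% to 39.0%, mt-Cytb 10.9% to 15.4%, mt-Nd2 7.17% to 14.2%, mt-Nd5 5.50% to 8.33%, mt-Nd4 3.05% to 8.17% and mt-Nd6 2.34% to 5.33%. Summed mitochondrial CPM exceeded summed nuclear CPM in every library, by 1.64-fold to 5.99-fold.

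On the log2 scale this ratio of mitochondrial to nuclear reads was 1.73, 1.93, 1.76, 0.71 and 1.25 in the hippocampus with HSP70 and 2.12, 1.40, 2.10, 1.301 and 2.004 with YB1. In the cortex it was 1.79, 1.07, 1.22, 1.53 and 2.08 with HSP70 and 1.82, 1.33, 2.48, 2.22 and 2.58 with YB1. The 2 treatments overlapped in both tissues, and hippocampus HSP70 replicate 4 was the lowest of all libraries.

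Group means were 1.48 ± 0.50 (SD, n = 5) with HSP70 and 1.79 ± 0.40 with YB1 in the hippocampus, a difference of 0.31 that was below the pooled SD of 0.46. In the cortex they were 1.54 ± 0.41 and 2.09 ± 0.52, a difference of 0.55. A YB1 library was the higher in 19 of 25 hippocampal and 21 of 25 cortical pairings of libraries. Without hippocampus HSP70 replicate 4 the hippocampal difference was 0.12. Without cortex YB1 replicate 2 the cortical difference reached 0.74, and over all libraries left out in turn it was at least 0.42. Taking mt-Nd2, mt-Co1, mt-Co2, mt-Atp8, mt-Atp6 and mt-Co3 out of the ratio left log2 values from -0.18 (hippocampus HSP70 replicate 4) to 1.87 (cortex YB1 replicate 5). The nuclear sum was then the larger in the first of these libraries.

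The summed mitochondrial levels were 49628 ± 12499 CPM (SD, n = 5) with HSP70 and 60121 ± 7162 with YB1 in the hippocampus and 49765 ± 12762 and 70277 ± 16259 in the cortex. Summed nuclear levels were 17532 ± 3305 CPM (SD, n = 5) with HSP70 and 17729 ± 4232 with YB1 in the hippocampus and 16823 ± 1913 and 16382 ± 2946 in the cortex. The nuclear sum was highest in hippocampus YB1 replicate 4 and HSP70 replicate 5, the 2 libraries with the highest share of Bc1, a short noncoding neuronal RNA (20.8% and 20.3% of reads). The part of Bc1 in these levels was not tested.

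**Figure D3:**
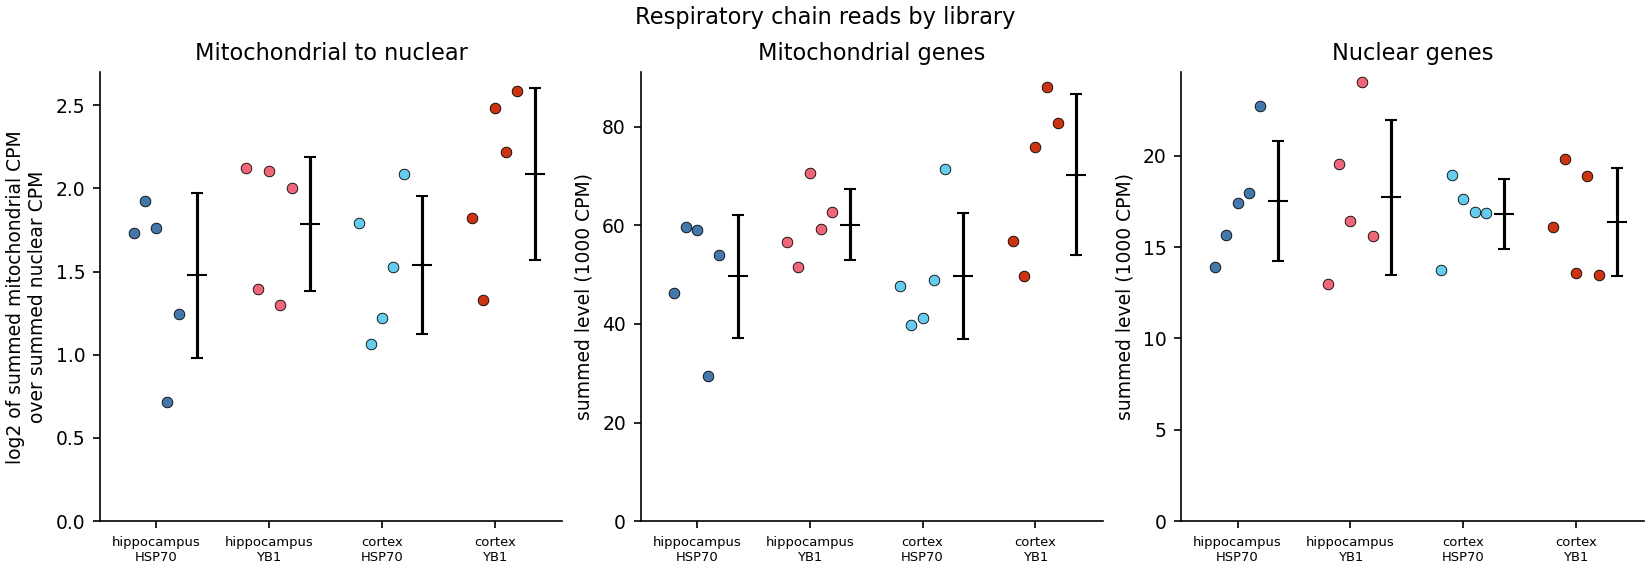
For each library, grouped by tissue and treatment: the log2 ratio of summed mitochondrial to summed nuclear respiratory chain CPM, the mitochondrial sum and the nuclear sum; points are libraries, bars the mean and SD of 5. The YB1 points reach higher than the HSP70 points in the mitochondrial panel but overlap with them in all 3 panels.

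In the hippocampus no respiratory chain gene passed the test between YB1 and HSP70. With edgeR's quasi-likelihood test and Benjamini-Hochberg adjustment, 0 of 87 members tested were called, against 0% of all 13723 genes, and DESeq2 and limma-voom also called 0. At an unadjusted p under 0.05 stood 1 member, mt-Nd6, higher with YB1, against 2.4% of all genes (1.41% higher and 0.984% lower). The 7 mitochondrial genes had fitted log2 fold changes of 0.09 (mt-Co1) to 0.41 (mt-Nd6), with a median of 0.37. The 80 nuclear members had a median of 0.06, and all genes a median of -0.003. In the same libraries all 6 hippocampal markers had positive values (median 0.47, 3 at an unadjusted p under 0.05), with summed levels of 349.7 to 426 CPM with HSP70 and 380.03 to 582 with YB1. All 5 endothelial markers were positive as well (median 0.25), at 133 to 169.6 against 171 to 198 CPM summed. Other cell types also moved: all 5 plasma cell markers (median 0.66) and 5 of 6 microglia markers (0.18) were positive. All 6 oligodendrocyte markers (-0.19) and all 4 erythroid markers tested (-0.47) were negative. None of the genes of these marker lists passed the adjusted test, and their part in the values of the respiratory chain genes was not tested.

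Levels of mt-Nd6, a core membrane subunit of complex I, were 1302, 1393, 1664, 1083 and 1519 CPM with HSP70 and 1435, 1351, 1948, 2849.9 and 1689 with YB1. The groups overlapped, and YB1 replicate 4 stood far above the rest. The fitted change was 0.41 ± 0.19 (SE; adjusted p = 0.999998 by edgeR's quasi-likelihood test with Benjamini-Hochberg adjustment), and it was 0.20 without that library. Without HSP70 replicate 4, the median of the mitochondrial genes was 0.17. As mt-Nd6 is annotated on the minus strand, its counts depend on the strand setting of the counting, which is not given in the sources used here.

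Among nuclear members of the hippocampus, the smallest p-values for a higher level belonged to the complex I genes Ndufs4 (0.36 ± 0.23, SE), Ndufa1 (0.28 ± 0.19) and Ndufv2 (0.24 ± 0.20). On the lower side were Sdhc (-0.19 ± 0.14) and Sdhb (-0.16 ± 0.20), the membrane anchor and the iron-sulfur subunit of complex II, and Cox5a (-0.17 ± 0.17). All 6 overlapped between treatments. Of the complex I members 29 of 37 had a positive value, of complex II 2 of 4, of complex III 4 of 8, of complex IV 8 of 15 and of complex V 10 of 16, beside 49.3% of all genes. The median of the nuclear members was -0.13 without YB1 replicate 4 and -0.03 without HSP70 replicate 1.

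In the cortex the 7 measured mitochondrial genes all had higher means with YB1, and no member was called. With edgeR's quasi-likelihood test and Benjamini-Hochberg adjustment 0 of 88 members tested passed, against 0% of all 14114 genes, while DESeq2 and limma-voom called 0 members and 4 and 1 genes in all. At an unadjusted p under 0.05 stood 5 mitochondrial and 1 nuclear member on the higher side and 6 nuclear members on the lower side, against 5.48% of all genes (3.02% higher and 2.47% lower). The median log2 fold change was 0.53 for the mitochondrial genes, -0.03 for the 81 nuclear members and 0.01 for all genes.

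Cortical mt-Nd5 was at 3087, 2321, 2599, 3327 and 4394 CPM with HSP70 and at 3823, 3234, 6316, 5662 and 6429 with YB1. YB1 replicates 3, 4 and 5 lay above every HSP70 library and the other 2 lay inside their range. The fitted change was 0.69 ± 0.21 (SE; adjusted p = 0.858 by edgeR's quasi-likelihood test with Benjamini-Hochberg adjustment).

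The pattern of mt-Nd4 was alike, with 2604, 1912, 1472, 2568 and 4853 CPM under HSP70 and 3995, 2486, 6117, 5636 and 5899.9 under YB1. Its fitted change was 0.85 ± 0.31 (SE). The other mitochondrial genes followed at 0.57 ± 0.18 for mt-Nd2, 0.53 ± 0.19 for mt-Cytb, 0.47 ± 0.22 for mt-Nd1, 0.40 ± 0.19 for mt-Co1 and 0.18 ± 0.13 for mt-Nd6, each with groups that overlapped. The gene with the smallest change, mt-Nd6, is the only one of the 7 annotated on the minus strand of the mitochondrial genome, and the log2 ratio of mt-Nd6 to mt-Nd5 was -0.71 ± 0.40 (SD, n = 5) with HSP70 and -1.20 ± 0.35 with YB1. The library kit marks the strand, per the labels, but the strand setting of the counting is not given in the sources used here, and these 2 genes overlap at their ends.

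2 nuclear members of complex IV were lower with YB1 in every cortical library than in any HSP70 library, Cox5a and Cox7a2l, out of 88 tested, beside 0.517% of all genes on that side. Cox5a, a subunit of the matrix side of cytochrome oxidase, was at 79.3, 125, 129, 88.8 and 96.3 CPM with HSP70 and 77.2, 67, 57.9, 40.6 and 70.1 with YB1. Cox7a2l was at 130.0, 138, 167, 147 and 155 CPM with HSP70 and 114, 106, 74.4, 102 and 100.6 with YB1. The highest YB1 library of Cox5a and its lowest HSP70 library lay close together, whereas the gap was wider for Cox7a2l.

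Their fitted changes were -0.73 ± 0.18 (SE) for Cox5a and -0.57 ± 0.14 for Cox7a2l, each with an adjusted p of 0.858 by edgeR's quasi-likelihood test with Benjamini-Hochberg adjustment. Over the alternatives the adjusted p ran from 0.0206 to 0.993 for Cox5a and from 0.141 to 0.993 for Cox7a2l, and only testing without a filter on low counts, which took Cox5a to 0.0206, brought either under the threshold. In the hippocampus, where both genes overlapped between treatments, the fitted change of Cox5a was -0.17 ± 0.17 (SE) and that of Cox7a2l 0.09 ± 0.16. The summed level of the 6 parvalbumin interneuron markers, which include Cox6a2, was also lower with YB1 in every cortical library (409 to 496 CPM against 510.3 to 628 with HSP70; median log2 fold change -0.26, 4 of 6 negative). Other lists moved too. Negative were 7 of 8 cortical markers (median -0.21), 6 of 8 neuron markers (-0.11) and all 4 erythroid markers tested (-0.58). Positive were 5 of 6 microglia (0.27), 5 of 6 oligodendrocyte (0.18), 4 of 5 plasma cell (0.30) and 4 of 5 endothelial markers (0.16). None of these markers passed the adjusted test. The part of any marker list in the values of Cox5a and Cox7a2l was not tested. Depth and the share of reads outside genes moved with the treatment in the cortex. The part of either in these values was not tested beyond thinning every library to 6414215 reads, after which Cox5a was at -0.70 and Cox7a2l at -0.55.

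The other nuclear members at an unadjusted p under 0.05 in the cortex overlapped between treatments. Atp5g2, 1 of the c-subunit genes, was higher on average with YB1 (48.3 ± 10.4 against 32.9 ± 11.46 CPM, SD, n = 5; fitted change 0.55 ± 0.21). Uqcrfs1, the Rieske iron-sulfur protein of complex III, was at -0.33 ± 0.14 (SE), and Ndufc1 (-0.33 ± 0.14), Atp5e (-0.39 ± 0.19) and Cox6c (-0.32 ± 0.15) completed the list. By complex, positive values were seen in 17 of 37 nuclear members of complex I, 1 of 4 of complex II, 5 of 8 of complex III, 6 of 15 of complex IV and 8 of 17 of complex V, beside 50.9% of all genes. Cox6b2 (0.57 ± 0.33) and Ndufa1 (0.22 ± 0.14) had the next smallest p on the higher side, and their groups overlapped.

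The difference between the 2 treatment effects, cortex minus hippocampus, was tested directly. With edgeR's quasi-likelihood test and Benjamini-Hochberg adjustment 0 of 88 members passed, against 0% of all 14616 genes, and DESeq2 and limma-voom also called 0. At an unadjusted p under 0.05 stood 2 members, Cox7a2l (-0.66 ± 0.21, SE) and Cox5a (-0.55 ± 0.26), against 1.55% of all genes. The mitochondrial genes had a median difference of 0.31, from -0.23 (mt-Nd6) to 0.45 (mt-Nd4), and the nuclear members one of -0.06. The smallest p after these belonged to Ndufs1 (-0.33 ± 0.16), a core iron-sulfur subunit of complex I, and on the higher side to Atp5g2 (0.49 ± 0.33), Cox6b2 (0.53 ± 0.52) and Cox6a2 (0.54 ± 0.53).

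**Figure D4:**
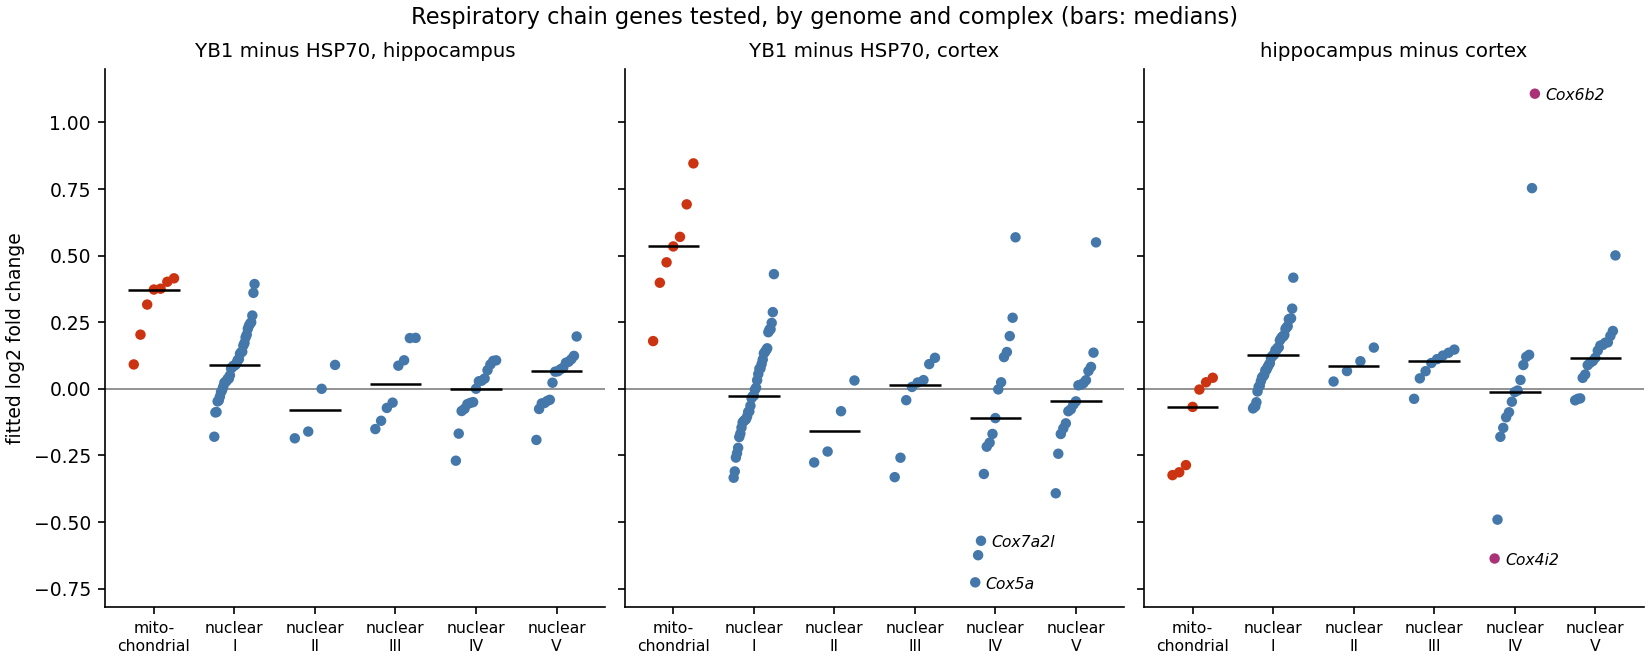
Fitted log2 fold changes of the tested members in 3 comparisons, mitochondrial genes in red and nuclear genes in blue by complex; bars are medians and purple points pass an adjusted p of 0.05. The mitochondrial medians are 0.37 and 0.53 between treatments and -0.07 between tissues, and the only points that pass are Cox6b2 and Cox4i2 between tissues.

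Between tissues, 2 of 88 members tested passed, both low-level isoforms of complex IV. Cox6b2 was higher and Cox4i2 lower in the hippocampus, with edgeR's quasi-likelihood test and Benjamini-Hochberg adjustment over 14616 genes, of which 15.9% passed (8.55% higher and 7.32% lower). The members' share was thus under that of all genes. At an unadjusted p under 0.05 stood 5 members higher and 4 lower, against 26.8% of all genes. No member had tissues that did not overlap, beside 3.01% of all genes (1.62% higher and 1.39% lower). With the replicate number within its treatment as a block 4 members passed, mt-Nd6 and Ndufb6 besides these. The same block is meant wherever tissues are compared below.

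Cox6b2 ran from 4.13 to 16.1 CPM with a median of 5.56 in the hippocampus and from 1.32 to 5.97 with a median of 3.69 in the cortex. The tissues overlapped, but the hippocampal library was the higher in 10 of 10 pairs of libraries with the same number. The fitted difference was 1.11 ± 0.26 on the log2 scale (SE; adjusted p = 0.00339), or 2.16-fold, by edgeR's quasi-likelihood test with Benjamini-Hochberg adjustment. Within the HSP70 libraries it was 1.37 (adjusted p = 0.0429) and within the YB1 libraries 0.83 (adjusted p = 0.159), by the same test. Over all alternatives the adjusted p was between 0.00018 and 0.159.

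Cox4i2 ran from 2.36 to 6.76 CPM with a median of 4.00 in the hippocampus and from 3.81 to 9.77 with a median of 5.91 in the cortex, and was lower in the hippocampus in 8 of 10 pairs. The difference was -0.64 ± 0.19 (SE; adjusted p = 0.0243) by edgeR's quasi-likelihood test with Benjamini-Hochberg adjustment. It lost the call without cortex HSP70 replicate 2 (adjusted p = 0.0615) or cortex YB1 replicate 2 (0.0551), the 2 libraries with the highest values, within either treatment alone (0.387 and 0.1001), and when libraries were thinned to equal depth (0.180). Of 5 markers of pericytes and smooth muscle, 1 was called lower in the hippocampus and 0 higher, beside 7.32% of all genes called lower. A negative value was seen in 4 of these markers and a positive one in 1. Their summed levels were 46.5 to 67.5 CPM in the hippocampus and 57.1 to 78.2 in the cortex, which overlapped. The part of these markers in the difference of Cox4i2 was not tested.

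**Figure D5:**
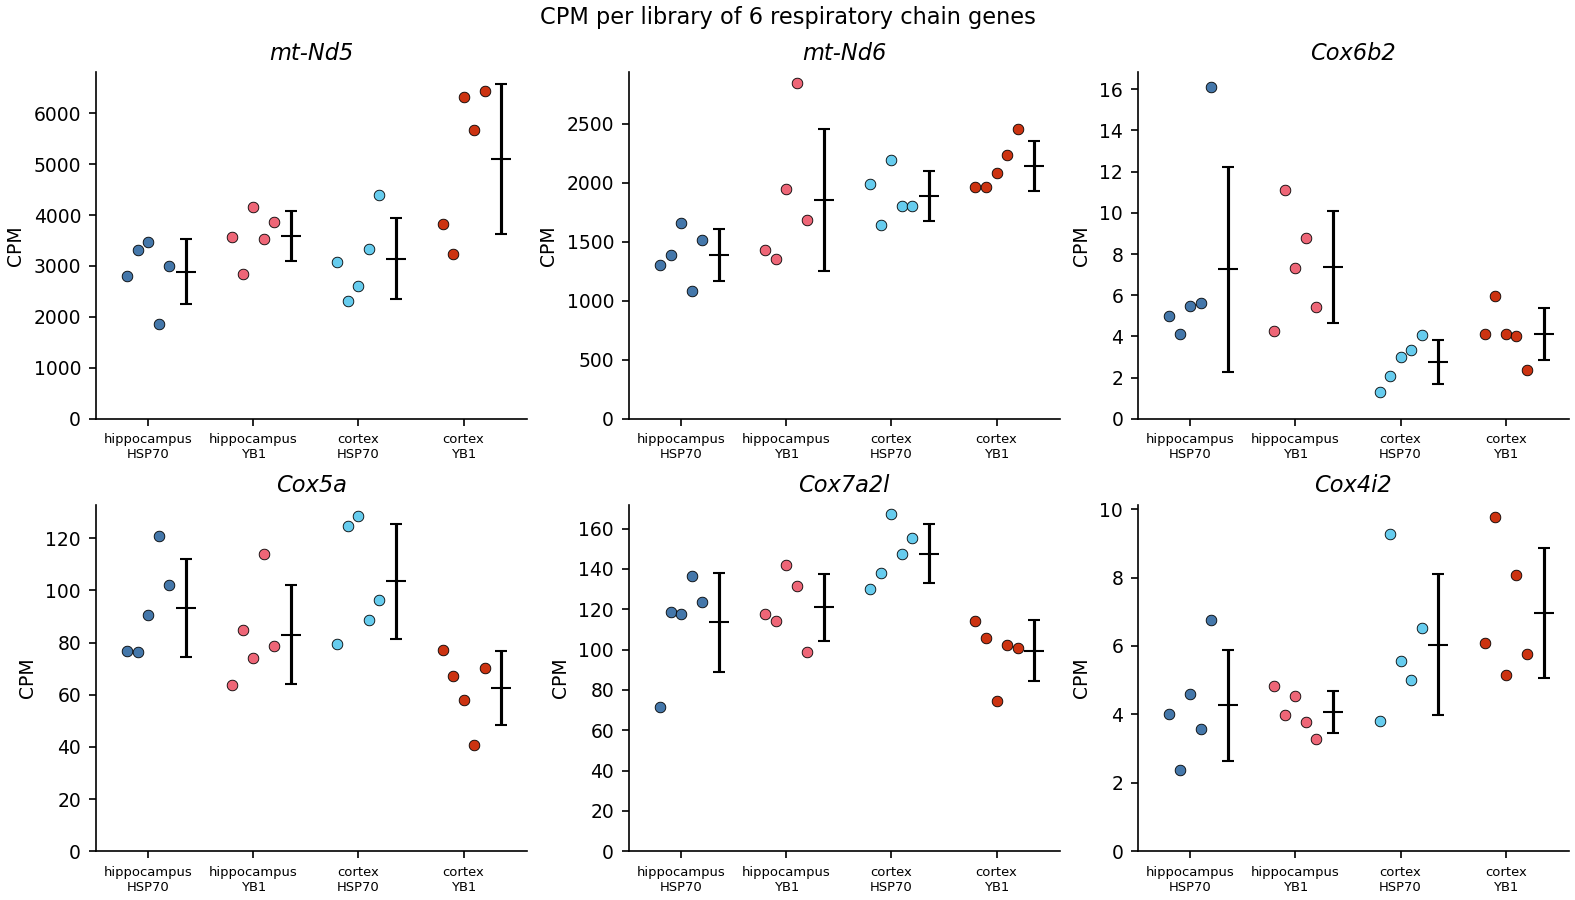
CPM of 6 respiratory chain genes in each of the 20 libraries by tissue and treatment; points are libraries, and bars the mean and SD of 5. Cox5a and Cox7a2l separate the treatments in the cortex and overlap in the hippocampus, and Cox6b2 is higher and Cox4i2 lower in the hippocampus on average, with single libraries overlapping.

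The common forms differed little between tissues. Cox6b1 was at 259 ± 63.2 and 262 ± 37.6 CPM (SD, n = 10) in hippocampus and cortex, with a fitted difference of -0.01, and Cox4i1 at 1629 ± 450.3 and 1591 ± 322, with one of 0.03. The signs of both changed with single libraries left out. Cox6a2 was lower in the hippocampus in 8 of 10 pairs (-0.49 ± 0.27, SE) and did not pass. It is 1 of the 6 parvalbumin interneuron markers, of which 2 were called lower and 0 higher, beside 7.32% of all genes called lower, and 5 of 6 had a negative value. Cox7a1 (0.75 ± 0.29) and Cox8a (-0.15 ± 0.12) did not pass, although Cox7a1 did without cortex YB1 replicate 3 (adjusted p = 0.0278 by edgeR's quasi-likelihood test with Benjamini-Hochberg adjustment).

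Cox8b, the heart and muscle form of subunit 8, was left out of the test by the filter on low counts. It ran from 0.191 to 5.26 CPM with a median of 0.925 in the hippocampus and from 0 to 0.803 with a median of 0.299 in the cortex, so the tissues overlapped at very low levels. It passed when no filter was applied, as did mt-Nd6, which made 4 members called.

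Of the mitochondrial genes, mt-Nd6 came nearest to a call between tissues. It is annotated on the minus strand, and the strand setting of the counting is not given in the sources used here. It ran from 1083 to 2849.9 CPM with a median of 1477 in the hippocampus and from 1641 to 2461 with a median of 1977 in the cortex, and was lower in the hippocampus in 9 of 10 pairs. The difference was -0.32 ± 0.12 (SE; adjusted p = 0.0582), by edgeR's quasi-likelihood test with Benjamini-Hochberg adjustment. It passed with DESeq2 (0.0355), upper-quartile scaling (0.0489), no filter on low counts (0.0375), limma-voom (0.0143) and the replicate number as a block (0.00982). It also passed without hippocampus HSP70 replicate 3 (0.0401) and without hippocampus YB1 replicate 4, where it was -0.43 (0.00238), both by edgeR. It did not pass with any other single library left out, nor within the HSP70 or the YB1 libraries alone. Next were mt-Nd5 at -0.31 ± 0.14 and mt-Co1 at -0.29 ± 0.14, and mt-Nd1, mt-Nd2 and mt-Nd4 were within 0.05 of 0.

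Of the nuclear members, 63 of 81 had a positive difference, beside 50.1% of all genes, with a median of 0.10 against 0.001 for all genes. These members were measured in the same libraries, and by library the nuclear sum was higher in the hippocampus in only 6 of 10 pairs. By complex these were 32 of 37 in complex I, 4 of 4 in complex II, 7 of 8 in complex III, 6 of 15 in complex IV and 14 of 17 in complex V. Ndufb6, an accessory subunit of complex I, had the next smallest p (0.42 ± 0.16, SE; adjusted p = 0.0799 by edgeR's quasi-likelihood test with Benjamini-Hochberg adjustment), was higher in the hippocampus in 9 of 10 pairs, and passed with the replicate number as a block (0.0466) and without hippocampus YB1 replicate 1 (0.0246). The log2 ratio of mitochondrial to nuclear reads was 1.63 ± 0.46 (SD, n = 10) in the hippocampus and 1.81 ± 0.53 in the cortex, and was the higher in the hippocampus in 4 of 10 pairs.

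Members varied between libraries of one group about as much as other genes or more. The median within-group SD was 0.35 log2 units for both the mitochondrial and the nuclear members tested and 0.36 for all genes. Among genes of at least 10 CPM it was 0.34 for 74 nuclear members and 0.28 for all genes.

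Genes that act with the respiratory chain were called between tissues alone (0 in either treatment comparison), beside 15.9% of all genes called there, 8.55% higher and 7.32% lower in the hippocampus. Of 47 assembly factors tested, 1 was higher in the hippocampus, Tmem186 (0.44 ± 0.13, SE), and Coa7 was at -0.38 ± 0.15. Of 31 genes for mitochondrial transcription, replication and RNA processing 1 was higher and 1 lower in the hippocampus, Top1mt, a mitochondrial topoisomerase, at 0.54 ± 0.14 and Angel2 at -0.33 ± 0.11. Of 23 nuclear regulators only Prkaa2, a catalytic subunit of the energy sensor AMPK, was called, lower in the hippocampus at -0.78 ± 0.20, beside Mef2d at -0.21 ± 0.09.

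Set against the same 8.55% of all genes higher in the hippocampus, 2 of 77 mitochondrial ribosomal proteins were, Mrpl10 (0.30 ± 0.08, SE) and Mrpl39 (0.37 ± 0.10). The citric acid cycle had 2 of 20 higher, a share close to that of all genes, Suclg1 (0.40 ± 0.11) and Idh2 (0.36 ± 0.11), and glycolysis 1 of 17, Pfkl (0.41 ± 0.09), with Pfkp at -0.19 ± 0.07. Of the 5 mitochondrial ribosomal and transfer RNAs tested, mt-Rnr1 was lower in the hippocampus (-0.36 ± 0.09) and mt-Rnr2 did not pass (-0.14 ± 0.12). Poly(A) selection removes most ribosomal RNA, so these 2 levels measure what the selection left.

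Between treatments in the cortex the median log2 fold change was -0.07 for assembly factors, -0.07 for mitochondrial transcription and RNA processing, 0.01 for mitochondrial ribosomal proteins, -0.08 for the citric acid cycle, 0.03 for glycolysis, -0.14 for nuclear regulators and -0.12 for genes of mitochondrial structure and mass, beside 0.53 for the mitochondrial messenger genes. The 5 mitochondrial ribosomal and transfer RNAs had a median of 0.22, from -0.0045 to 0.84. The smallest p in the list of mitochondrial transcription belonged to Tfam, which packages and transcribes mitochondrial DNA (-0.48 ± 0.21, SE), and Rexo2 (-0.20 ± 0.15).

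Promoters of nuclear members were searched in the RefSeq table of build GRCm38.p6, which differs from the GRCm39 assembly of the counts and was used only for sequence. Of the nuclear members, 66 had an entry, and the 250 bases before the start were read on both strands. The core of the NRF1 motif, which is the palindrome in capitals in the windows shown next with the sixth base left free, was found in 13 of 66 member genes (19.7%) and in 4.23% of 27025 genes. The exact NRF1 palindrome, a subset of that core, was found in 4 members (6.06%) against 0.877% of all genes, the ETS motif CCGGAAG in 12 (18.2%) against 7.83%, the SP1 motif GGGCGGGG in 9 (13.6%) against 18.0% and the YY1 motif in 0 against 0.248%. The shares of all genes cover every gene with an entry and were not matched to the members by base content or expression. A match describes letters in a window and shows no binding.

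The 4 members with the exact palindrome are shown, with 60 bases of each promoter on the strand of the gene and the palindrome in capitals: Atp5g2 (chr15:102671055-102671114, minus strand), Atp5k (chr5:108434415-108434474, minus), Cox6a1 (chr5:115349086-115349145, minus) and Ndufa11 (chr17:56717677-56717736, plus).
Atp5g2: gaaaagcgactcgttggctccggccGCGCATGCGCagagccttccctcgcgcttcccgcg
Atp5k: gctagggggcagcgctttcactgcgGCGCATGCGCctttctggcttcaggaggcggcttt
Cox6a1: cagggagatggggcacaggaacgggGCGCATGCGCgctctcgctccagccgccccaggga
Ndufa11: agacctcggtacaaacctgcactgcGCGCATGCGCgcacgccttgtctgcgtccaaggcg

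The last 150 bases before the start of the paired isoforms Cox6b1 (chr7:30626115-30626264, minus strand) and Cox6b2 (chr7:4753095-4753244, minus) are shown because the tissues differed in the second and not detectably in the first; capitals mark the ETS motif, read on the opposite strand.
Cox6b1: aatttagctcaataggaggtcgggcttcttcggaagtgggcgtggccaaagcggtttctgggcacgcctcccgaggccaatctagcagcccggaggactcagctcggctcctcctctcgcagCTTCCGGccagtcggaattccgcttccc
Cox6b2: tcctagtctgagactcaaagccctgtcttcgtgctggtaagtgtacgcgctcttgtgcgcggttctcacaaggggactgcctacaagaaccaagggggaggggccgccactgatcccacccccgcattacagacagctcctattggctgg

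The 13 members with the NRF1 core had a median level of 99.0 CPM per kb, against 79.2 for the 53 without it. Their median log2 fold changes were 0.06 and 0.06 between treatments in the hippocampus, 0.03 and -0.03 in the cortex, and 0.10 and 0.12 between tissues. The 12 members with the ETS motif had medians of 0.08, -0.19 and 0.06 in these comparisons, against 0.06, 0.001 and 0.13 for the 54 without it.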

How the data were processed

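Gene counts were deposited by the authors as whole reads per gene and library, made with Trimmomatic, STAR and featureCounts on GRCm39, per the submitters' processing notes. For tool versions, annotation release, strand setting and the treatment of multi-mapping reads: not given in the sources used here. The 12 summary entries of each file were left out (no feature 2.45% to 4.58%, ambiguous 4.12% to 4.58% of reads), leaving 6414215 to 15148078 reads per library. Symbols came from GENCODE M21 (GRCm38), which named 99.4% of identifiers and 99.98% of reads.

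Counts were tested in R 4.3.3 with edgeR 4.0.16 (TMM scaling, filterByExpr, robust quasi-likelihood) over all genes kept, with Benjamini-Hochberg adjustment at 0.05. CPM values are TMM-scaled, log2 CPM used a prior count of 2, and the script was tested on simulated data. Treatments were compared within each tissue (10 libraries), and tissues and the interaction over 20. Alternatives were DESeq2 1.42.0, limma 3.58.1 (voom with quality weights), other scalings, no filter, a replicate block, thinning, and each library left out. The block was the replicate number between treatments, and the replicate number within its treatment for tissues and the interaction.

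The members and gene lists were chosen with earlier results of these data known. Named genes are all mitochondrial members; per comparison the nuclear members that passed, or else 3 per direction by p; the highest member of each complex; tissue-type isoforms; and the 2 smallest p of each related list. Genes outside it (Ndufc1, Atp5e, Cox6c, Atp5l) were chosen after their values were seen.

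Deviations from group means over 14616 genes correlated at 0.198 to 0.624 between tissues of the same number in all 10 pairs. For different numbers under the same treatment the correlations were -0.413 to 0.341, so the ranges overlapped. Hippocampus YB1 replicate 1 was closer to cortex YB1 replicates 5 (0.341) and 3 (0.260) than to cortex YB1 replicate 1 (0.207). The numbers were taken to pair tissues from these values alone, as the labels do not name the animals. Between treatments, correlations for the same number ran from -0.283 to 0.496 in the hippocampus and from -0.135 to 0.167 in the cortex, and the numbers did not pair them.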

Additional observations from a re-analysis of the deposited data

Results flagged for a closer look

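Of 160 checks for 1 library standing apart from the other 4 of its group, 15 found one, where chance gives about 1 in 20. In hippocampus YB1 replicate 4, 6 nuclear members were the highest of their group: Cox6b1 at 399 CPM, Cox7b at 72.7, Ndufa4 at 195, Ndufs4 at 102, Ndufv2 at 276 and Uqcrfs1 at 131. That library also had the largest share of Bc1 reads (20.8%), and the part of that share in these levels was not tested. In hippocampus HSP70 replicate 5, with the next largest share (20.3%), Atp5g1 (166 CPM) and Cox6b2 (16.1) were the highest. Cox6b2 still differed between tissues without that library (0.86 on the log2 scale, adjusted p = 0.00712 by edgeR's quasi-likelihood test with Benjamini-Hochberg adjustment).

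The other libraries each stood apart in 1 gene. The highest of their groups were Atp5g2 in cortex YB1 replicate 4 (66.6 CPM), Cox8b in hippocampus YB1 replicate 2 (4.11), Sdha in hippocampus YB1 replicate 3 (478) and mt-Nd2 in cortex HSP70 replicate 5 (6677). The lowest were Atp5b in hippocampus YB1 replicate 1 (1659), Cox7a2l in hippocampus HSP70 replicate 1 (71.5) and Uqcrc1 in cortex HSP70 replicate 1 (395).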

How the results depend on the processing

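Of 85 results recomputed, 15 changed sign under some alternative, 54 times on leaving out 1 library and 18 times otherwise. The count of members called in the cortex between treatments was 1 without a filter on low counts. Between tissues it was 4 without a filter, 4 with the replicate block, 1 when thinned to equal depth (chosen after seeing the data), 1 within HSP70, 0 within YB1 and 2 to 4 with single libraries left out. In pairing tissues by number, the block changed the sign of mt-Nd1 (0.0097) and mt-Nd2 (-0.0034); it changed no other call than those of mt-Nd6 and Ndufb6. Between treatments, where numbers did not pair libraries, it called 0 members in either tissue.

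Signs also changed under limma-voom for the interaction of Cox6a2 (-0.25) and mt-Nd1 (-0.0059) and for the tissue difference of Cox4i1 (-0.11), Ndufa4l2 (0.074), mt-Cytb (0.032) and mt-Nd1 (0.091). Within HSP70 they changed for Atp5g2 (0.20), mt-Cytb (0.10) and mt-Nd1 (0.048), and within YB1 for Cox6a1 (0.061), Cox6b1 (0.079), Cox7a2l (0.27), Cox7b (0.0094), Ndufa4 (0.024), mt-Nd2 (-0.079) and mt-Nd4 (-0.18). With single libraries left out the tissue difference ran from -0.18 to 0.051 for Atp5g2, -0.048 to 0.086 for Cox4i1, -0.098 to 0.045 for Cox6a1, -0.12 to 0.025 for Cox6b1, -0.099 to 0.012 for Cox7a2l, -0.21 to 0.054 for Ndufa4l2, -0.12 to 0.0033 for mt-Cytb, -0.070 to 0.11 for mt-Nd1, -0.035 to 0.13 for mt-Nd2 and -0.042 to 0.20 for mt-Nd4. The hippocampal treatment difference of mt-Co1 ran from -0.018 to 0.24 and the interaction of mt-Nd1 from -0.079 to 0.33. The cause of these changes was not tested.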
